A study of Mus musculus with 10 samples.

Results

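The genes of 11 glycosyltransferase families that build, branch and cap glycans with galactose, N-acetylglucosamine, N-acetylgalactosamine, fucose and sialic acid were examined in the jejunum of newborn mice. Members were taken by symbol, for families chosen with earlier results of these data known. All symbols that began with Fut, St3gal, St6gal, St6galnac, St8sia, Galnt, Gcnt, B3galt, B3gnt, B4galt or B4galnt followed by a digit were taken. This gave 76 of the 24062 symbols counted. Of these, 74 are enzyme genes, Fut4-ps1 is a pseudogene and St8sia3os is transcribed antisense to St8sia3. The symbol B3gnt1 belongs to a gene that the annotation names B4gat1 and that is not a B3gnt enzyme by its present name. RNA sequencing (RNASeq) had been performed on jejunum of mice at postnatal day 5, to ask whether raised circulating interleukin-23 (IL-23) goes along with changes of intestinal gene expression. The 5 KSR23 libraries came from C57BL/6 mice that carried R23, a cassette for both subunits of IL-23 placed behind a removable stop signal, together with a cre recombinase under the keratin 14 (K14) promoter, so that keratinocytes make the cytokine. The 5 WT libraries came from wild type C57BL/6 mice of the same age, which the study describes as control littermates. The K14 promoter is also known to be active in other squamous epithelia.

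Mucus and the brush border of the intestine are covered by glycans, and these enzymes make them step by step in the Golgi. On mucins, GALNT enzymes first attach N-acetylgalactosamine to serine or threonine, C1GALT1 adds galactose to give core 1, and GCNT enzymes add a branch of N-acetylglucosamine. Many B3GNT, B3GALT and B4GALT enzymes lengthen the chains with N-acetylglucosamine and galactose, and most FUT, ST3GAL, ST6GAL, ST6GALNAC, ST8SIA and B4GALNT enzymes add terminal sugars. In mice the small intestine is rich in sialic acid during suckling and in fucose after weaning, and fucose at the ends of epithelial glycans is a known food source and attachment site for gut bacteria.

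Library totals were 25.5 to 32.0 M counts in WT and 31.2 to 60.9 M in KSR23 (M stands for 1000000), and the limit that 3 counts allow was 0.0427 to 0.119 CPM (counts per M counts after totals were scaled between libraries by TMM). The 10 libraries also differed in a way the groups do not explain. The median log2 CPM of 1196 genes with over 57% GC minus that of 1430 genes with under 42% GC, each as the deviation from the mean of all libraries, ran from -0.80 to 0.62 in WT and from -1.19 to 0.77 in KSR23, and it was lowest in WT replicate 1 and KSR23 replicate 3. For members described here that did not pass the main test but were called with this GC tilt as a covariate, adjusted p values with the tilt and without these libraries are both given. Replicates 4 and 5 of both groups were intermediate, being the highest or lowest library of the group at 12.4% to 21.4% of 13181 genes where replicates 1 to 3 were so at 45.1% to 70.2%. The labels do not show whether replicates 4 and 5 are animals of their own. If they are not, n = 5 counts too many animals and the adjusted p values are too small, so counts from replicates 1 to 3 alone are given beside those of the members and families. The share of 4 Y-linked genes in the counts also differed. It was 0.0171% to 0.0207% in 4 WT libraries and 0.00161% in WT replicate 3, against 0.0148% and 0.00841% in KSR23 replicates 1 and 4 and at most 2.89e-05% in the other 3. The labels do not give the sex of the animals. All 8 epithelial markers were detected in all groups, with summed levels of 2490 to 4240 CPM in WT and 4500 to 7960 CPM in KSR23. The gap between these sums depends in large part on Krt20, with 359 ± 29.1 CPM in WT and 1674 ± 777 CPM in KSR23 (SD, n = 5 each). The genes of the IL-23 subunits had low counts in the jejunum. Il23a had 1 to 14 counts in WT and 8 to 34 in KSR23 libraries, and Il12b had 0 to 5 in WT and 9 to 40 in KSR23. Counts by symbol do not separate the transgene from the genes of the mouse itself. Il12b was higher in KSR23 with no overlap (log2 fold change 2.32, SE 0.66, adjusted p = 0.00364 in the test described next), and Il23a did not pass the test (adjusted p = 0.270). Il12b was not called in replicates 1 to 3 alone (adjusted p = 0.295) or with the Y-linked share as a covariate (adjusted p = 0.0808).

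Of the 74 members tested, 17 were higher and 4 were lower in KSR23 mice. The higher ones were 4 Fut, 4 Galnt, 3 Gcnt and 2 B4galnt genes and 1 gene each of the B3galt, B3gnt, B4galt and St3gal families. B3galt5 rose most, followed by Fut2 and B3gnt7, and the 4 genes that fell (St3gal1, St3gal5, St6galnac1 and St8sia3) all encode sialyltransferases. A gene was called at an adjusted p under 0.05 in the likelihood ratio test of edgeR with Benjamini-Hochberg adjustment over all 17632 genes tested, and adjusted p refers to this test throughout. The members called were 28.4% of those tested, against 18.5% of all genes tested, 9.73% higher and 8.76% lower. The families were chosen with earlier results of these data known, which limits this comparison. The median log2 fold change (KSR23 over WT) was 0.47 over the members and 0.03 over all genes. In 12 members every KSR23 library lay above every WT library, and in 4 every one lay below, where 7.41% and 6.99% of all genes did so. The quasi-likelihood F test called 18 members (15.4% of all genes), replicates 1 to 3 alone gave 8 members (3.36% of all genes), and the quasi-likelihood F test on replicates 1 to 3 gave only 3 members, Fut2, B3galt5 and B3gnt7 (0.812% of all genes). With the Y-linked share as a covariate 15 members were called (10.2% of all genes), without Fut1, Fut8, Galnt5, Galnt7, St3gal4 and St6galnac1. By family the share called was 50% to 60% for Fut, Gcnt, St3gal and B4galnt and 25.0% for Galnt. It was 20.0% for B3galt, 16.7% for St6galnac, 14.3% each for B4galt and St8sia, 11.1% for B3gnt and 0% for St6gal, near or below the 18.5% of all genes. Fut9 and Fut4-ps1 had 0 counts in all 10 libraries, which allows up to 0.119 CPM in the library with the highest limit, and were not tested. The 53 members that did not pass the test had log2 fold changes of -2.47 to 3.80, the extremes being Galnt13 and Galnt9, which had counts in 2 libraries and in 1 library.

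**Figure D1:**
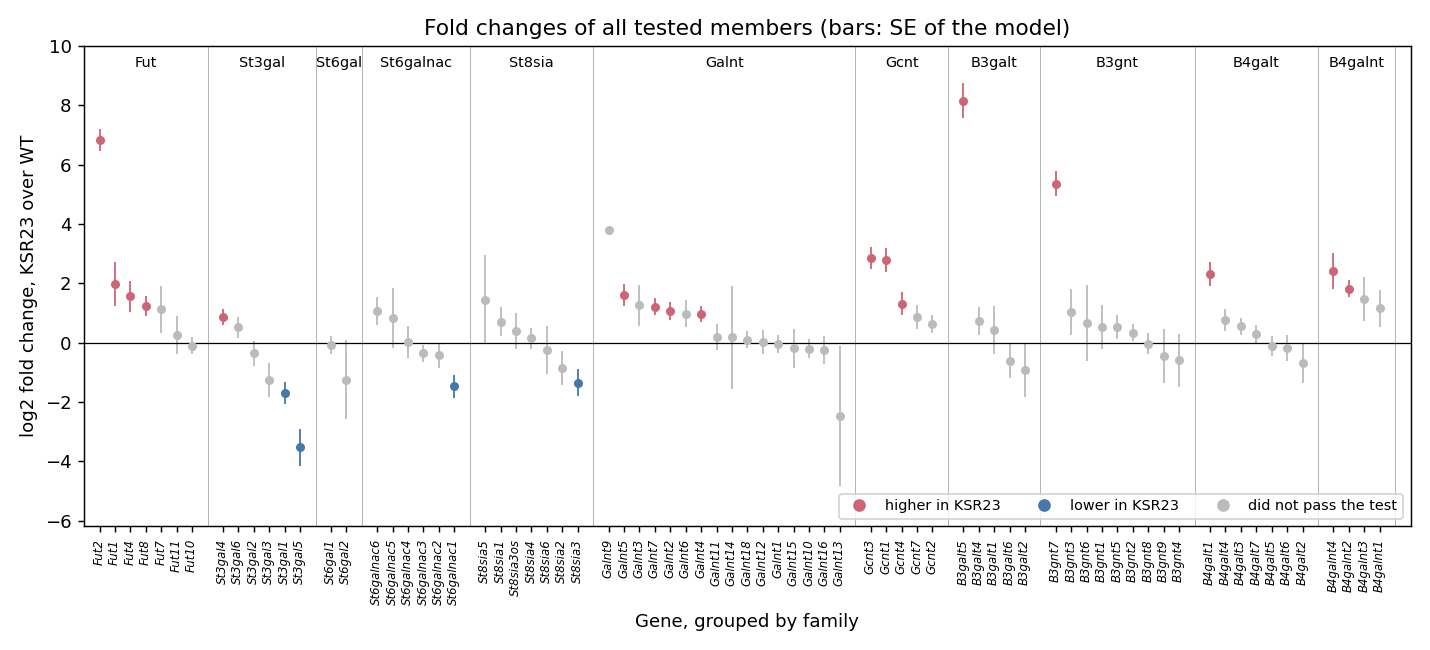
Log2 fold change (KSR23 over WT, vertical axis) of all 74 members tested, grouped by family, with bars for the standard error of the model (none could be estimated for Galnt9, which had counts in 1 library). Colours mark members that were higher, lower or did not pass the test. B3galt5, Fut2 and B3gnt7 stand above 5, and the 4 genes that fell are in the sialyltransferase families.

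Of the 16 Galnt genes tested, which encode the enzymes that start mucin-type O-glycans, 4 rose and none fell, and the other 12 had log2 fold changes of -2.47 to 3.80. Galnt5 (chr2:57997884-58045860) stood at 0.867, 1.49, 1.32, 1.61 and 1.43 CPM in WT replicates 1 to 5 and at 3.51, 2.74, 7.43, 2.89 and 4.09 CPM in KSR23 replicates 1 to 5. All KSR23 libraries were above all WT libraries, and KSR23 replicate 3 was highest. The change was 3.08-fold (log2 fold change 1.61, SE 0.37, adjusted p = 3.81e-04). Galnt7 (chr8:57523828-57653032), whose enzyme acts on peptides that already carry N-acetylgalactosamine, was more abundant. It measured 56.96, 38.4, 36.6, 50.1 and 51.0 CPM in WT and 75.9, 101, 152, 85.3 and 126 CPM in KSR23, again with no overlap and with KSR23 replicate 3 highest. The mean rose from 46.6 ± 8.77 to 108 ± 31.2 CPM (SD, n = 5 each), with log2 fold change 1.21, SE 0.29, adjusted p = 4.75e-04. Galnt2 (chr8:124231391-124345724) encodes a widely expressed starter enzyme. Its levels were 12.5, 18.2, 15.6, 17.3 and 11.9 CPM in WT and 43.1, 35.7, 20.3, 32.4 and 25.6 CPM in KSR23, and the groups did not overlap (log2 fold change 1.06, SE 0.30, adjusted p = 0.00553). Other annotated genes cover 93.6% of its exons, 1810008B01Rik on the opposite and Gm20388 on the same strand, so its counts are uncertain. Galnt4 also rose with no overlap, by 0.97 on the log2 scale. In replicates 1 to 3 alone none of these 4 genes was called, and with the Y-linked share as a covariate Galnt5 and Galnt7 were not (adjusted p = 0.0605 and 0.0859).

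Galnt6 (chr15:100691813-100729376) was the most abundant member of its family per length, with 37.0 ± 16.8 RPKM (CPM per kilobase of exon) in WT and 72.5 ± 40.2 RPKM in KSR23 (SD, n = 5 each). In CPM it stood at 75.0, 229.9, 152, 175 and 83.2 in WT and at 237, 517, 86.5, 308 and 255 in KSR23. In KSR23 4 libraries exceeded all WT libraries, while KSR23 replicate 3 lay among the lowest values of both groups, as did WT replicate 1. The difference did not pass the test (log2 fold change 0.97, SE 0.45, adjusted p = 0.120). With the GC tilt as a covariate the adjusted p was 0.00121 and without WT replicate 1 and KSR23 replicate 3 it was 0.0281. Galnt3 likewise was not called (adjusted p = 0.209, 0.0400 with the tilt and 0.178 without these libraries), and its KSR23 values split into 72.9 and 49.2 CPM in replicates 1 and 4 and 7.25 to 9.18 CPM in the other 3.

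All 5 Gcnt genes had positive log2 fold changes, and the 3 that encode core 2 branching enzymes (Gcnt1, Gcnt3 and Gcnt4) passed the test, Gcnt1 and Gcnt3 also in replicates 1 to 3 alone. Gcnt3 (chr9:70031496-70038088), the mucin-type enzyme that also makes core 4, stood at 13.8, 11.4, 7.93, 14.6 and 11.7 CPM in WT and at 30.5, 143, 75.9, 71.7 and 108 CPM in KSR23. The lowest KSR23 library, replicate 1, was still above the highest WT library. Gcnt3 rose 7.21-fold (log2 fold change 2.85, SE 0.38, adjusted p = 3.32e-10). Gcnt1 (chr19:17326141-17372844) was scarcer, with 1.92, 1.59, 0.440, 1.64 and 1.13 CPM in WT and 4.75, 11.7, 9.98, 8.46 and 11.6 CPM in KSR23. There was no overlap, and KSR23 replicate 1 was again the lowest of its group. Gcnt1 rose 6.91-fold (log2 fold change 2.78, SE 0.41, adjusted p = 7.32e-09). Gcnt4 rose by 1.31 on the log2 scale with KSR23 replicate 3 inside the WT range. Gcnt2 (chr13:40859754-40960892), which makes the I branch of lactosamine chains, was the most abundant Gcnt gene in WT at 14.6 ± 3.41 RPKM. Its levels of 124, 100.2, 62.9, 108 and 119 CPM in WT and 109, 121, 234, 133 and 195 CPM in KSR23 overlapped, and the difference did not pass the test (log2 fold change 0.63, SE 0.31, adjusted p = 0.147). With the GC tilt as a covariate the adjusted p was 0.00561, and it was 0.232 without WT replicate 1 and KSR23 replicate 3. As a share of the summed RPKM of the family, Gcnt3 went from 12.7% ± 1.22 in WT to 35.1% ± 11.8 in KSR23 and Gcnt2 from 66.5% ± 7.94 to 41.8% ± 10.7 (SD, n = 5 each). The ranges of both shares did not overlap between the groups.

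Goblet cells, which make the mucins of the intestine, use many of the Galnt and Gcnt enzymes, and their markers moved in the same direction. Of 8 goblet cell markers 7 rose (87.5%, against 9.73% of all genes), of which 2, Muc2 and Zg16, were called in replicates 1 to 3 alone, and their summed level was 1560 to 2190 CPM in WT and 2930 to 5610 CPM in KSR23. Muc2, the main gel-forming mucin of the intestine, went from 50.6 ± 4.69 to 196 ± 41.0 CPM (SD, n = 5 each, log2 fold change 1.95, SE 0.25, adjusted p = 2.73e-12). None of the markers was at 0 in either group. In whole tissue, more cells of a type cannot be told apart from more RNA per cell, and the part of goblet cells in these changes was not tested.

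**Figure D2:**
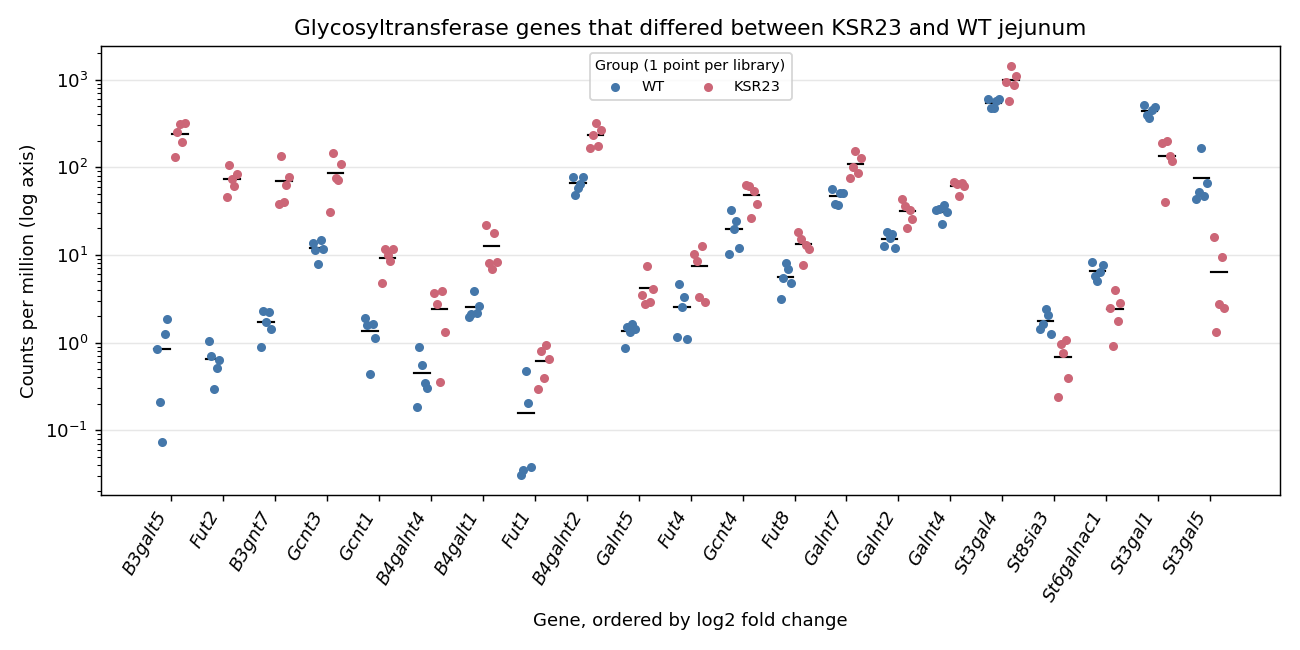
CPM (per M counts of the TMM-scaled total, log axis) of the 21 members called, with 1 point per library and a short line at the mean of each group of 5. B3galt5, Fut2 and B3gnt7 reach at most 2.26 CPM in WT libraries and lie near or above 40 CPM in KSR23 libraries, while St3gal1, St3gal5, St6galnac1 and St8sia3 are lower in every KSR23 library.

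Of the 5 B3galt genes, which encode enzymes that add galactose, 1 rose and none fell. B3galt5 (chr16:96235801-96319859) encodes the enzyme that makes type 1 chains, galactose on N-acetylglucosamine, at the ends of intestinal glycans. It stood at 0.836, 0.212, 0.0734, 1.27 and 1.84 CPM in WT and at 129, 249, 315, 192 and 323 CPM in KSR23. WT replicate 3 held 2 counts and WT replicate 5, the highest, held 49, whereas KSR23 libraries held 7723 to 11430 counts. The rise was 286-fold (log2 fold change 8.15, SE 0.59, adjusted p = 1.55e-22) and was also called in replicates 1 to 3 alone (adjusted p = 1.70e-15). Per length B3galt5 went from 0.137 ± 0.119 to 39.2 ± 13.3 RPKM (SD, n = 5 each). It took 3.77% ± 3.93 of the family sum in WT and 81.0% ± 10.1 in KSR23. B3galt4, which makes gangliosides, was the leading B3galt gene in WT with 87.6% ± 5.61 of the sum, and had 18.3% ± 9.97 in KSR23 while its own level of 4.79 ± 2.33 RPKM in WT and 7.99 ± 3.79 RPKM in KSR23 did not pass the test (adjusted p = 0.300, 0.00698 with the GC tilt as a covariate and 0.143 without WT replicate 1 and KSR23 replicate 3).

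Promoters of the members were searched for TTCNNNGAA, the letters that STAT factors, which relay cytokine signals, are known to bind. N is any base, the motif reads the same on both strands, and no other motif was searched. RefSeq promoters of build GRCm38.p6, from 250 bases before to 50 bases after a start, were held for 54 members. The motif was found for 3 of the 13 higher members with an entry (23.1%), for 0 of 1 lower member, for 1 of 40 members that were not called (Gcnt2), and for 9.55% of all 27025 genes in the table. No entry was matched for Fut2, Gcnt3 or St3gal1. The sequences of the 3 higher members are shown because they carry the match, in capitals, from 5′ to 3′ on the strand of the gene. The match begins 10 bases before the start in B3galt5 (chr16:96235551-96235850, plus strand) and 99 bases before it in B4galt1 (chr4:40853935-40854234, minus strand). Gcnt4 (chr13:96924094-96924393, plus strand) holds the motif 170 bases before and again 6 bases after a start that is no transcript start in GENCODE M21. A match describes letters in this window and is not a bound site.
B3galt5: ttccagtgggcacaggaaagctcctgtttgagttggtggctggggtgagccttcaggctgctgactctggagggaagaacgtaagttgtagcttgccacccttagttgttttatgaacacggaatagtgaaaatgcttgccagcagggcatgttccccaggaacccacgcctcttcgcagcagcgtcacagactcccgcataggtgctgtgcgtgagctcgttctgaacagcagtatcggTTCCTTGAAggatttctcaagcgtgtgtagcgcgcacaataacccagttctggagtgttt
B4galt1: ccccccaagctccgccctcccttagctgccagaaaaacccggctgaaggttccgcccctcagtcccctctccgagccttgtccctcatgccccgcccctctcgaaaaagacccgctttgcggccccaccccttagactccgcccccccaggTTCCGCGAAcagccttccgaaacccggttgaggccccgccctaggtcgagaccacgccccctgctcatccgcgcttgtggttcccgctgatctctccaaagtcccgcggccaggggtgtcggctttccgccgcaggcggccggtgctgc
Gcnt4: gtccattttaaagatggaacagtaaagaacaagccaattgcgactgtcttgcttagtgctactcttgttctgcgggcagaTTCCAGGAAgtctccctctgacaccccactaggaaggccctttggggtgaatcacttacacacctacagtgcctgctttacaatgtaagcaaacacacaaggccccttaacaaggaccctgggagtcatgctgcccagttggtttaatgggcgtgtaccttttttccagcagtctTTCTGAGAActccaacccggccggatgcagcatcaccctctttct

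Of the 9 B3gnt genes tested, 1 rose, also in replicates 1 to 3 alone. B3gnt7 (chr1:86302832-86307305) encodes an enzyme that adds N-acetylglucosamine to lactosamine chains, including sulfated ones. Its levels were 0.898, 2.26, 1.73, 2.25 and 1.43 CPM in WT and 38.0, 132, 39.8, 62.5 and 78.1 CPM in KSR23. The groups were far apart, with KSR23 replicate 2 highest. The rise was 41.0-fold (log2 fold change 5.35, SE 0.41, adjusted p = 3.63e-25), and the share of B3gnt7 in the summed RPKM of the family went from 2.42% ± 0.856 to 37.4% ± 15.5 (SD, n = 5 each). Gm28626 on the opposite strand covers 12.6% of its exons, and whether counting used strand is not given in the sources used here. B3gnt3 (chr8:71690756-71701789), which extends core 1 O-glycans, led the family per length in WT with 39.6% ± 17.7 of its sum. In KSR23 its mean share of 33.2% ± 19.3 was below that of B3gnt7. With the union of exons as length its mean level of 19.2 ± 13.7 RPKM was above the 16.97 ± 9.34 RPKM of B3gnt7. With the longest transcript as length the KSR23 shares were 27.3% ± 17.5 for B3gnt3 and 45.6% ± 15.9 for B3gnt7. B3gnt3 stood at 2.04, 44.4, 55.4, 28.9 and 13.1 CPM in WT and at 107, 84.6, 2.86, 68.3 and 30.7 CPM in KSR23. WT replicate 1 and KSR23 replicate 3, the libraries lowest in GC-rich genes, held 2.04 and 2.86 CPM, far under the others of their groups. B3gnt3 did not pass the test (log2 fold change 1.03, SE 0.79, adjusted p = 0.412), and with the GC tilt as a covariate its log2 fold change was 1.01 at an adjusted p of 0.00617, whereas without these libraries it was not called (adjusted p = 0.101).

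Of the 7 B4galt genes, 1 rose, also in replicates 1 to 3 alone. Several of their enzymes add galactose to N-acetylglucosamine to form lactosamine, whereas those of B4galt5 and B4galt6 make lactosylceramide and that of B4galt7 acts on the xylose of proteoglycans. B4galt1 (chr4:40804602-40854005) stood at 1.95, 2.12, 3.89, 2.19 and 2.59 CPM in WT and at 22.2, 8.12, 6.88, 17.8 and 8.21 CPM in KSR23. KSR23 replicates 1 and 4 were highest, and no KSR23 library overlapped with WT. B4galt1 rose 4.96-fold (log2 fold change 2.31, SE 0.41, adjusted p = 1.94e-06). B4galt4 (chr16:38742264-38769049) was the most abundant of the family at 7.91 ± 3.44 RPKM in WT and 13.3 ± 4.18 RPKM in KSR23 (SD, n = 5 each). In CPM it measured 14.2, 38.4, 34.4, 25.4 and 14.7 in WT and 43.1, 65.4, 30.9, 39.4 and 35.2 in KSR23. The groups overlapped and the difference did not pass the test (log2 fold change 0.75, SE 0.37, adjusted p = 0.147), whereas the adjusted p was 0.00206 with the GC tilt as a covariate and 0.163 without WT replicate 1 and KSR23 replicate 3.

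Of the 4 B4galnt genes, 2 rose, and only B4galnt2 was called in replicates 1 to 3 alone. B4galnt2 (chr11:95865943-95914891) encodes the enzyme of the Sda antigen, which adds N-acetylgalactosamine to sialylated chains in the intestine. It stood at 77.9, 48.0, 58.6, 65.0 and 77.7 CPM in WT and at 166, 231, 319.5, 175 and 266 CPM in KSR23. There was no overlap, and KSR23 replicates 3 and 5 were highest. B4galnt2 rose 3.54-fold (log2 fold change 1.82, SE 0.28, adjusted p = 1.37e-08), and at 134 ± 37.3 RPKM in KSR23 it ranked second among all members per length. Gm11534 overlaps 15.3% of its exons on the opposite strand. B4galnt4 rose by 2.41 on the log2 scale from a low level, 0.186 to 0.884 CPM in WT, and KSR23 replicate 3 with 0.358 CPM lay inside that range. B4galnt1, a ganglioside enzyme, was not called (adjusted p = 0.209), and its lowest values of 7.31 and 7.55 CPM were again in WT replicate 1 and KSR23 replicate 3. Its adjusted p was 0.00125 with the GC tilt as a covariate and 0.0304 without these libraries.

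Of the 7 Fut genes tested, 4 rose (Fut1, Fut2, Fut4 and Fut8) and none fell, and in replicates 1 to 3 alone only Fut2 was called. Fut2 (chr7:45648591-45666394) encodes the enzyme that adds fucose to terminal galactose in the intestinal epithelium and is known in humans as the secretor gene. It stood at 1.05, 0.707, 0.294, 0.518 and 0.638 CPM in WT and at 46.2, 105, 73.9, 61.8 and 84.0 CPM in KSR23. All WT libraries held 8 to 34 counts, and all KSR23 libraries held 1860 to 3488 counts. Fut2 rose 116-fold (log2 fold change 6.84, SE 0.38, adjusted p = 4.56e-47), the smallest adjusted p among the members, and was called in replicates 1 to 3 alone (adjusted p = 3.56e-14). Per length, Fut2 took 4.19% ± 2.38 of the summed RPKM of the family in WT, with a range of 1.43% to 7.75%, and 70.8% ± 13 in KSR23, with a range of 52.2% to 81.1%. The sum itself went from 3.05 ± 0.585 to 19.1 ± 3.37 RPKM (SD, n = 5 each). With the union of exons as length Fut10 led the family in WT (Fut8 did with the longest transcript), with 0.873 ± 0.188 RPKM, and did not pass the test (log2 fold change -0.10, SE 0.28, adjusted p = 0.852).

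The other Fut genes that rose changed less. Fut1, the paralog of Fut2 with the same acceptor, had 1 to 13 counts in WT libraries and 10 to 53 in KSR23 libraries, and was called at an adjusted p of 0.0451. Leaving out 1 library at a time ended this call in 7 of 10 cases (WT replicates 1, 2, 4 and 5 and KSR23 replicates 2, 4 and 5), and without WT replicate 3 the log2 fold change was 2.91 instead of 1.97. Fut4, which makes Lewis x type structures, had a log2 fold change of 1.57 and an adjusted p of 0.0226, and the call was lost without WT replicate 1, 3 or 5 or KSR23 replicate 4. Fut1 and Fut4 were not called by the quasi-likelihood F test (adjusted p = 0.101 and 0.0581). Fut8, which adds the core fucose of N-glycans, rose by 1.23 on the log2 scale (adjusted p = 0.00541) and kept its call when any 1 library was left out, but not with the Y-linked share as a covariate (adjusted p = 0.0523).

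The St3gal genes, whose enzymes add sialic acid to galactose, moved in both directions, with 1 of 6 higher and 2 lower, of which only St3gal5 was called in replicates 1 to 3 alone. St3gal4 (chr9:35046576-35119268), which caps lactosamine chains, was the most abundant member of all families at 186 ± 21.4 RPKM in WT and 336 ± 106 RPKM in KSR23 (SD, n = 5 each). In CPM it stood at 600.3, 477, 473, 566 and 595 in WT and at 943, 572, 1413, 876 and 1100.0 in KSR23. KSR23 replicate 2 lay within the WT range and the other 4 lay above it. St3gal4 was called (log2 fold change 0.85, SE 0.27, adjusted p = 0.0156), but not without KSR23 replicate 5 (adjusted p = 0.0571), with the Y-linked share as a covariate (adjusted p = 0.127) or in replicates 1 to 3 alone. St3gal1 (chr15:67102875-67176830), whose enzyme caps core 1 O-glycans, stood at 510.3, 393, 365, 455 and 489.5 CPM in WT and at 186, 40.6, 198, 134 and 119 CPM in KSR23. No library overlapped, and KSR23 replicate 2 was lowest. The WT mean was 3.26-fold that of KSR23 (log2 fold change -1.71, SE 0.37, adjusted p = 1.37e-04). In replicates 1 to 3 alone St3gal1 was not called (adjusted p = 0.206).

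St3gal5 (chr6:72097592-72154571) encodes the synthase of the ganglioside GM3, the first step of the sialylated glycolipids. It stood at 43.4, 51.9, 164, 47.3 and 65.3 CPM in WT and at 15.9, 1.32, 2.74, 9.55 and 2.48 CPM in KSR23. WT replicate 3 was high, and KSR23 replicates 1 and 4 were the highest of their group, yet no library overlapped. The WT mean was 11.6-fold that of KSR23 (log2 fold change -3.53, SE 0.63, adjusted p = 1.10e-05), and the log2 fold change was -4.14 without KSR23 replicate 1. St3gal3, which also caps lactosamine and type 1 chains, was lower in mean (28.7 ± 16.2 CPM in WT and 12.0 ± 9.37 CPM in KSR23, mean ± SD) without passing the test (log2 fold change -1.26, SE 0.57, adjusted p = 0.120). Its adjusted p was 5.06e-06 with the GC tilt as a covariate and 0.0508 without WT replicate 1 and KSR23 replicate 3. As shares of the family sum per length, St3gal4 went from 62.9% ± 5.41 to 90.3% ± 2.37, St3gal1 from 21.9% ± 2.53 to 5.15% ± 1.76 and St3gal5 from 9.60% ± 6.36 to 0.680% ± 0.659. The summed St3gal level of 295 ± 19.6 RPKM in WT and 370.0 ± 110.0 RPKM in KSR23 overlapped between the groups.

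**Figure D3:**
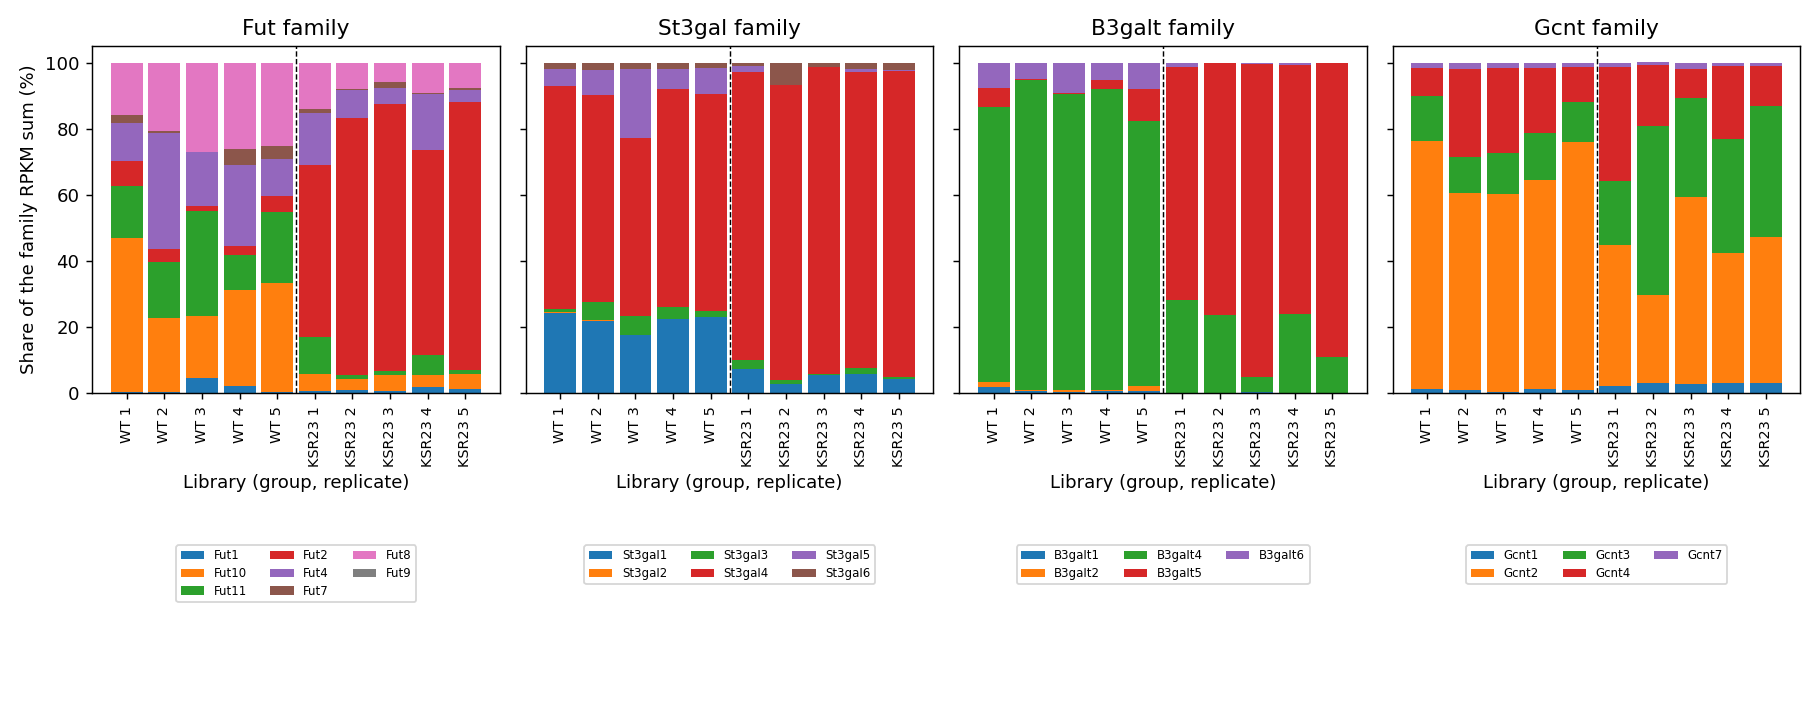
Share of each gene in the summed RPKM of its family (vertical axis, %) in each of the 10 libraries for the Fut, St3gal, B3galt and Gcnt families, with a dashed line between WT and KSR23. In all KSR23 libraries Fut2 holds at least 52.2% and B3galt5 at least 70.5% of the family sum, St3gal4 holds 87.3% to 92.8% against 53.8% to 67.3% in WT, and Gcnt3 holds a larger share than in any WT library.

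Enzymes that add sialic acid in other positions were scarcer. Neither St6gal gene passed the test. St6gal1 (chr16:23224740-23360350), the enzyme of sialylated N-glycans, stood at 2.69, 4.56, 4.48, 3.92 and 3.15 CPM in WT and at 3.48, 4.804, 3.34, 2.32 and 3.84 CPM in KSR23, which overlapped (log2 fold change -0.08, SE 0.31, adjusted p = 0.897). Of the 6 St6galnac genes, whose enzymes add sialic acid to N-acetylgalactosamine, 1 fell. St6galnac1 (chr11:116765025-116775507), the enzyme of sialyl Tn, measured 8.27, 5.76, 5.06, 6.37 and 7.62 CPM in WT and 2.45, 0.903, 4.01, 1.77 and 2.79 CPM in KSR23. All KSR23 libraries were below all WT libraries, and KSR23 replicate 2 was lowest (log2 fold change -1.48, SE 0.38, adjusted p = 0.00202). It was not called in replicates 1 to 3 alone (adjusted p = 0.351) or with the Y-linked share as a covariate (adjusted p = 0.0863). As 27.1% of its 75-base stretches also occur in Gm11735, reads from either gene may be lost or shared. St6galnac2 (chr11:116675303-116694868) was the most abundant of this family. It stood at 16.6, 67.3, 50.01, 39.0 and 25.8 CPM in WT and at 38.9, 38.2, 13.6, 35.3 and 22.1 CPM in KSR23, the groups overlapped, and the difference did not pass the test (log2 fold change -0.42, SE 0.42, adjusted p = 0.545).

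Of the 7 St8sia symbols, whose enzymes link sialic acids to each other, 1 fell. St8sia3 (chr18:64254359-64279611) stood at 1.42, 1.63, 2.38, 2.04 and 1.24 CPM in WT and at 0.242, 0.967, 0.755, 1.06 and 0.395 CPM in KSR23, with no overlap (log2 fold change -1.36, SE 0.45, adjusted p = 0.0215). It was not called by the quasi-likelihood F test (adjusted p = 0.0518), nor in replicates 1 to 3 alone, nor without WT replicate 2, 3 or 4 or KSR23 replicate 1 or 5. The gene is known from neurons, and the summed level of 8 markers of neurons and glia was 87.9 to 107 CPM in WT and 33.4 to 47.1 CPM in KSR23. Without S100b the sums of the other 7 overlapped, at 38.4 to 53.9 CPM in WT and 32.7 to 47.0 CPM in KSR23. Of these markers S100b fell (48.7 ± 13.4 to 0.596 ± 0.280 CPM, SD, n = 5 each, log2 fold change -6.33, SE 0.38, adjusted p = 5.04e-40) and Ret rose (log2 fold change 0.94, SE 0.33, adjusted p = 0.0315), while Elavl4 was detected in both groups and did not pass the test. Uchl1 was below all WT libraries in every KSR23 library (12.8 ± 1.68 CPM in WT and 8.14 ± 0.743 CPM in KSR23, SD, n = 5 each) and did not pass the test (adjusted p = 0.0650), but was called by the quasi-likelihood F test (adjusted p = 0.0404). The part of nerve cells in the difference of St8sia3 was not tested. The antisense St8sia3os overlaps 7.85% of the exons of St8sia3, where reads of the pair cannot be told apart without a known strand setting. St8sia4 (chr1:95587682-95667571), a polysialic acid enzyme and the most abundant St8sia gene per length over all libraries (in WT St8sia2 led with the union of exons as length and St8sia4 with the longest transcript), had 2.105, 3.92, 2.02, 2.995 and 3.42 CPM in WT and 2.70, 2.23, 2.70, 3.08 and 5.25 CPM in KSR23, and did not pass the test (log2 fold change 0.14, SE 0.35, adjusted p = 0.834).

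Genes that supply the sugars, or act on the same glycans outside these families, were examined as a list of 58 symbols, of which 56 were counted and 54 tested. In KSR23 15 were higher and 2 lower, 31.5% of those tested against 18.5% of all genes. This list too was chosen with earlier results of these data known, which limits the comparison. The quasi-likelihood F test called 13 and replicates 1 to 3 alone gave 4 (Gmds, Slc35c1, C1galt1 and Chst4). With the Y-linked share as a covariate 7 were called. Of 6 genes of GDP-fucose supply, 3 rose. Gmds, the first enzyme of fucose synthesis from mannose, stood at 12.2, 55.9, 74.4, 34.4 and 22.4 CPM in WT and at 444, 662, 81.2, 480.0 and 308 CPM in KSR23. The groups did not overlap, although KSR23 replicate 3 was close to WT replicate 3 (log2 fold change 3.31, SE 0.54, adjusted p = 8.17e-07). Slc35c1, the transporter that carries GDP-fucose into the Golgi, measured 62.1, 72.3, 30.6, 67.1 and 50.4 CPM in WT and 122, 283, 191, 163 and 232 CPM in KSR23, with no overlap (log2 fold change 1.81, SE 0.32, adjusted p = 1.56e-06). Fuk, the kinase that salvages fucose, was called at log2 fold change 1.40, SE 0.51, adjusted p = 0.0426, a call that 7 of 10 omissions of 1 library ended.

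Of 13 genes of UDP-sugar supply, 7 rose and none fell. Gfpt1, the first enzyme of the hexosamine pathway, went from 38.0 ± 5.58 to 97.8 ± 28.7 CPM (SD, n = 5 each, log2 fold change 1.36, SE 0.28, adjusted p = 6.08e-05). Gnpnat1 and Uap1, later steps to UDP-N-acetylglucosamine, had log2 fold changes of 1.10 and 1.32 (adjusted p = 0.00286 and 6.81e-05). Slc35a3, a Golgi transporter of UDP-N-acetylglucosamine, rose by 1.05 on the log2 scale (adjusted p = 0.00440). Gfpt2 and Slc35a2 rose by less than 1 on the log2 scale, and leaving out 1 library ended the call of Gfpt2 in 6 of 10 cases and that of Slc35a2 in 1. Of 6 genes of CMP-sialic acid supply, 1 rose, Gne, also by less than 1, and that call was lost in 7 of 10 omissions of 1 library. None of the 7 UDP-sugar genes was called in replicates 1 to 3 alone. With the Y-linked share as a covariate Gfpt1, Gnpnat1 and Uap1 were not called (adjusted p = 0.0555, 0.184 and 0.0560). Nor were Gfpt2, Slc35a2 and Gne (adjusted p = 0.0642, 0.128 and 0.200), while Slc35a3 was (adjusted p = 0.0428).

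Of 12 other glycan enzymes tested, 2 rose. C1galt1, the core 1 synthase that acts between the GALNT and GCNT steps, stood at 5.14, 2.72, 2.64, 4.06 and 5.56 CPM in WT and at 18.2, 31.1, 36.9, 22.8 and 36.0 CPM in KSR23. It rose 7.20-fold with no overlap (log2 fold change 2.85, SE 0.34, adjusted p = 6.59e-13) and was called in replicates 1 to 3 alone (adjusted p = 1.27e-04). A4gnt, a gastric mucin enzyme, was called at a low level (log2 fold change 1.21, SE 0.45, adjusted p = 0.0447), with KSR23 replicate 2 under all WT libraries, and lost the call in 8 of 10 omissions of 1 library. Of 8 sulfation genes, Chst4 rose and Gal3st2 fell, the latter by less than 1 on the log2 scale and not in 6 of 10 omissions of 1 library. Chst4, which sulfates N-acetylglucosamine, stood at 14.5, 13.9, 11.4, 13.7 and 14.6 CPM in WT and at 105, 339.8, 345, 184 and 346 CPM in KSR23. It rose 19.4-fold with no overlap (log2 fold change 4.28, SE 0.34, adjusted p = 1.57e-25). Of 9 genes of sugar removal tested, Glb1, the lysosomal beta-galactosidase, rose by less than 1 on the log2 scale and Neu2, the cytosolic sialidase, fell. Neu2 measured 6.53, 5.02, 5.28, 5.04 and 5.14 CPM in WT and 1.28, 0.419, 2.46, 1.12 and 1.35 CPM in KSR23, with no overlap (log2 fold change -2.03, SE 0.39, adjusted p = 1.57e-05). Neither Neu2 nor Glb1 was called in replicates 1 to 3 alone (adjusted p = 0.102 and 0.270). Glb1 was also not called with the Y-linked share as a covariate (adjusted p = 0.0948). The supply and removal genes that changed by less than 1 lie outside the naming rule and were named after their values were seen.

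**Figure D4:**
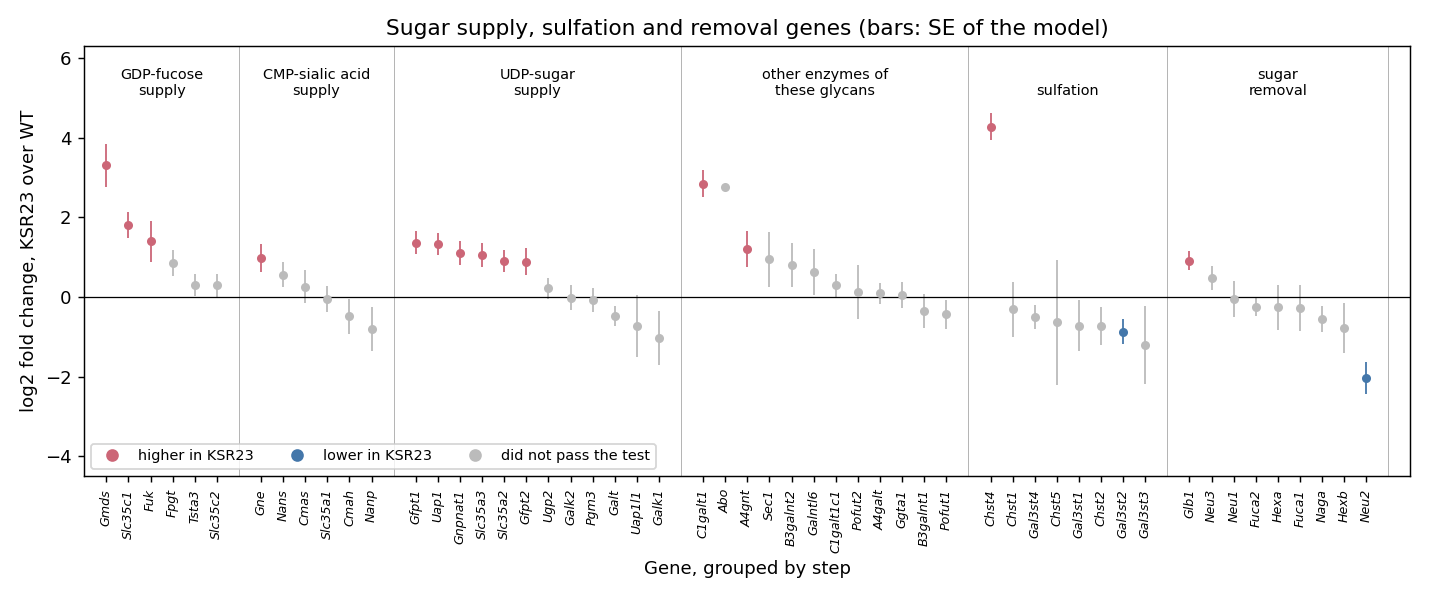
Log2 fold change (KSR23 over WT, vertical axis) of 53 of the 54 tested genes of sugar supply, sulfation, removal and other steps (1 is not drawn), with bars for the standard error of the model (none could be estimated for Abo). Chst4, Gmds and C1galt1 stand highest among the 14 drawn that rose, and Neu2 is the lower of the 2 that fell.

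Of 49 members with a mean log2 CPM above 1, 14 (28.6%) were lowest of their group in both WT replicate 1 and KSR23 replicate 3, as were 24.9% of 11931 genes at that level, and 7 (14.3%) were highest in both, as were 22.8% of these genes. The median GC content of the 14 members lowest in both was 54.3%, against 50.6% for all 49. With the tilt as a covariate, 31 members were called, 26 higher and 5 lower, when 36.9% of all genes were called. The 21 members called in the main test remained among them, and the 10 others were B3galt4, B3gnt3, B4galnt1, B4galt3, B4galt4, Galnt3, Galnt6, Gcnt2, St3gal3 and St6galnac6. Without WT replicate 1 and KSR23 replicate 3, 22 members were called, with B4galnt1 and Galnt6 gained and Fut1 lost, against 19.5% of all genes. What set the tilt was not tested.

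**Figure D5:**
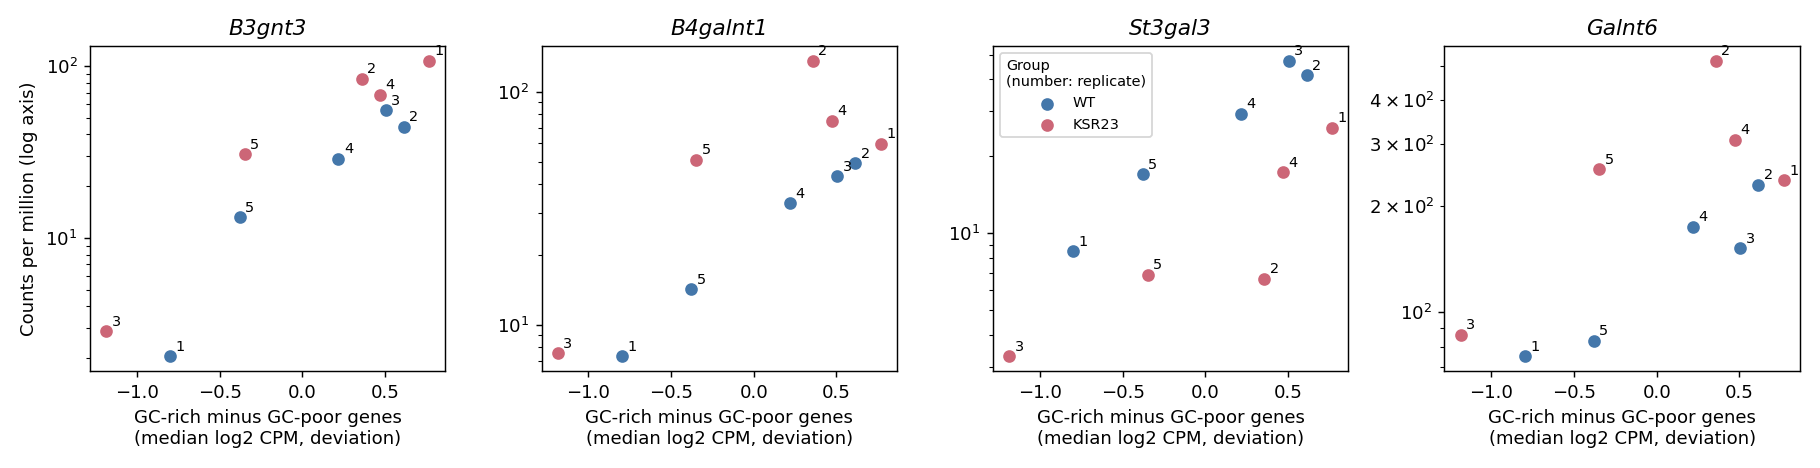
CPM (per M counts of the TMM-scaled total, log axis) of B3gnt3, B4galnt1, St3gal3 and Galnt6 against the GC tilt of each library (median log2 CPM of GC-rich minus GC-poor genes, as deviation from the mean of all libraries). Points are libraries with their replicate numbers, and WT replicate 1 and KSR23 replicate 3 lie at the left with low values in all 4 genes.

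Marker levels of other cell types were compared as well. Leukocyte markers summed to 645 to 745 CPM in WT and 520 to 705 CPM in KSR23. Of these 2 of 8 were higher, Itgam among them (25.0% called, against 18.5% of all genes). Markers of fibroblasts and muscle summed to 2430 to 3930 CPM and 2270 to 3040 CPM, with 2 of 8 lower (Dcn and Acta2, 25.0%). The other 6 did not pass the test, Myh11 and Col1a1 being 1.53-fold and 1.61-fold higher in mean. Markers of endothelium summed to 58.4 to 102 CPM and 81.5 to 121 CPM, with 1 of 4 lower (Cdh5, 25.0%). No marker of leukocytes, fibroblasts and muscle, or endothelium was called in replicates 1 to 3 alone. Of the 8 epithelial markers 2 (25.0%), Cdh1 and Krt20, were higher, and 6 did not pass the test. Only Epcam was lower in mean, with 367 ± 350 CPM in WT and 270 ± 218 CPM in KSR23 (SD, n = 5 each). Cdh1 was not called by the quasi-likelihood F test (adjusted p = 0.0572) or in replicates 1 to 3 alone (adjusted p = 0.489). Neither Cdh1 nor Krt20 was called with the Y-linked share as a covariate (adjusted p = 0.0876 and 0.0554). Pancreatic acinar markers summed to 98.8 to 208 CPM in WT and 5.90 to 15.6 CPM in KSR23, with all 5 tested lower. The part of these cell types in the changes of the glycosyltransferase genes was not tested.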

How the data were processed

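Jejunum RNA of 5 WT and 5 KSR23 mice was measured by single-end RNASeq of cDNA made from 100 pg of total RNA with oligo-dT priming and 15 cycles of PCR, without molecular identifiers, so limits cover counting error only. Per the paper's methods and the submitters' processing notes, the authors mapped reads to mm10 with TopHat 2.1.0 and deposited raw counts per gene from htseq-count (0.6.1p1 in the notes), not normalized or filtered, and the strand setting is not given in the sources used here. Groups and replicate numbers came from the sample titles. The study describes the libraries of a group as biological replicates, but the labels do not name the animals, so p-values may measure partly technical spread.

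Genes that reached 5 counts in any library were tested, totals were scaled by TMM, and negative binomial models with the group as the only term were compared by the likelihood ratio test of edgeR 4.0.16 (R 4.3.3), with Benjamini-Hochberg adjustment over all 17632 genes. CPM used the scaled totals, and RPKM divided them by the union of exons in kilobases from GENCODE M21 (mm10), in which all 76 members were found. Named were members called with a log2 fold change of 1 or more in size and no overlap, those called among the 10 most abundant, and the most abundant of each family. Other members were given by counts, or as paralogs and exceptions. The members and lists were chosen with earlier results of these data known. Alternatives were the quasi-likelihood F test, DESeq2 1.42.0, other scaling and filters, thinned counts, a replicate block, a share of Y-linked counts, GC tilt and omitted libraries. A few single-gene results, which enter the counts of their lists, are not reported here.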

Additional observations from a re-analysis of the deposited data

How the results depend on the processing

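Under the quasi-likelihood F test, DESeq2, RLE factors, library totals alone, thinned counts and either filter, 18 to 21 members were called, the same 21 or fewer. The filter at 5 counts in every library left out B3galt5 and Fut1. The median log2 fold change of all genes moved by less than 0.1 under these scalings. Leaving out 1 library at a time gave 18 to 23 members. Replicates 1 to 3 alone called 579 of all genes, 8 members (7 higher, 1 lower), 4 supply and partner genes and 7 cell type markers, and their quasi-likelihood F test called 140, 3 (3 higher, 0 lower), 2 and 3. In the main test these counts were 3261, 21 (17 higher, 4 lower), 17 and 21. At 3 against 3 libraries fewer samples were tested. With the share of 4 Y-linked genes as a covariate, 1797 genes, 15 members, 7 partner genes and 9 markers were called, and the members lost were Fut1, Fut8, Galnt5, Galnt7, St3gal4 and St6galnac1. The GC tilt as a covariate, added after the libraries had been seen, called 6502 genes and 26 higher members.

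With the replicate number as a block, 2202 genes, 19 members (without Fut8 and St3gal4) and 11 partner genes were called. Together with the GC tilt the replicate block gave 6936 genes, 32 members, of which 7 were lower, and 27 partner genes. Deviations of same-numbered libraries from their group means correlated at -0.72, 0.39, -0.66, 0.33 and 0.46 over 11405 genes. Not every library correlated best with its own number. WT replicate 1 and KSR23 replicate 3, the libraries with the lowest GC tilt, correlated at 0.86. The tilt enters these deviations, so they cannot show whether a shared number marks a litter or batch.

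Signs changed for 3 described members that did not pass the test. Leaving out 1 library moved the log2 fold change of St6gal1 between -0.182 and 0.078, and it was 0.039 without WT replicate 2, 0.078 without KSR23 replicate 4 and 0.021 in replicates 1 to 3 by either test. St8sia4 ranged from -0.108 (without KSR23 replicate 5) to 0.327 (without WT replicate 2) when 1 library was left out, and was -0.042 in replicates 1 to 3 by either test. Fut10 ranged from -0.166 (without WT replicate 3) to 0.021 (without WT replicate 1) when 1 library was left out, and was 0.047 with the Y-linked share as a covariate and 0.022 without both WT replicate 1 and KSR23 replicate 3. The cause of these shifts was not tested. Members with few counts in WT libraries, such as Fut1, carry a larger relative counting error, and its part in their spread was not tested.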
